A study of Homo sapiens with 6 samples.

Results

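A set of 10 genes of cell-cell junctions, the catenins and the proteins of the desmosome, were followed with and without TGFβ in Panc-1, a human cell line grown from a pancreatic carcinoma, on 6 Affymetrix Human Genome U133 Plus 2.0 arrays. The genes were the catenins CTNNA1, CTNNB1, CTNND1 and JUP, the plakophilins PKP2, PKP3 and PKP4, and the desmosome genes DSP, DSG2 and DSC2. They were chosen by name, beside 19777 genes in all that have a probe set naming no other gene, of which CTNND1 is not one. Cells in both groups were held without serum for 24 h. The 3 arrays of the treated group came from cells then given porcine TGFβ1 for 48 h at 5 ng/mL per the labels, and the other 3 arrays from untreated cells in plain medium. The unit of the dose in the study's methods is nM, and which is right is not settled here. The experiment was repeated 3 times with 1 cell line, so the spread below is that between repeats of this line only.

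Catenins join cadherins, the adhesion receptors of the cell surface, to the cytoskeleton. In the adherens junction β-catenin (CTNNB1) or plakoglobin (JUP) binds the tail of a classical cadherin such as E-cadherin, α-catenin (CTNNA1) links that complex to actin, and p120-catenin (CTNND1) binds nearer the membrane and holds the cadherin at the surface. In the desmosome the cadherins are desmogleins and desmocollins (DSG2 and DSC2 in simple epithelia), plakoglobin and plakophilins bind their tails, and desmoplakin (DSP) ties the plaque to keratin filaments. β-catenin is also the transcriptional partner of TCF/LEF factors in Wnt signalling, and loss of such junctions is a mark of epithelial-mesenchymal transition (EMT), which TGFβ induces.

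The array measured these genes with 29 probe sets, groups of short probes that give 1 signal each. Of these, 25 name only 1 member gene. The other 4 name CTNND1 together with TMX2-CTNND1, a read-through transcript of the neighbouring gene TMX2, so they cannot be assigned to CTNND1 alone and give no gene value here. Following the study's methods, a probe set was tested only where its mean reached 6.64 on the log2 scale, a signal of 100, in at least 1 group. Of the 29 member probe sets 19 passed this limit, and 10 were below it. A gene's value was the mean log2 signal of its passing probe sets, which left 8 of the 10 genes with a value: PKP2 had no passing probe set, and CTNND1 was read by probe set only.

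Across the series, the median signal of an array lay between 5.14 and 5.21 on the log2 scale, and the lowest correlation between arrays of 1 group was 0.995. Of 5 epithelial or duct carcinoma markers, 4 (KRT7, KRT8, KRT18 and EPCAM) had a probe set past the limit and KRT19 had none. The mean of all 5 markers, from all their probe sets without the limit, ran from 7.68 to 7.75 on the TGFβ arrays. On the untreated arrays it ran from 8.68 to 8.71. None of 10 leukocyte, endothelial, acinar and islet markers had a probe set past the limit. The markers CD68 and PRSS1 were also listed but had no gene value, so they were not read. As a sign of RNA quality, the 3′ minus 5′ difference between ACTB controls was 0.335 ± 0.060 with TGFβ and 0.554 ± 0.031 without (log2, SD, n = 3), and for GAPDH it was -0.028 ± 0.023 with TGFβ and -0.0096 ± 0.0096 without. Whether this had a part in any result below was not tested. On such arrays fewer cells that hold a message and less message per cell cannot be told apart.

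Among the 8 member genes with a value, JUP, PKP3 and DSP fell with TGFβ, DSG2 and DSC2 rose, and CTNNA1, CTNNB1 and PKP4 did not pass the test. The fall of JUP was 3.62-fold, and no other of the 8 gene values moved by 1.5-fold or more. Thus 5 of 8 genes changed by limma at an adjusted p under 0.05, against 58.7% of the 10115 genes tested, which is about the background. The 3 falls compare with 31.0% of all genes lower and the 2 rises with 27.7% higher. The median log2 fold change of the 8 genes was -0.028, beside -0.013 over all genes. Of the 19 probe sets 10 changed, against 55.1% of all 19101, with 7 lower and 3 higher, where 28.5% of all were lower and 26.6% higher. On 6 of the 8 genes the TGFβ and untreated arrays did not overlap, as was so for 68.2% of all genes, and on 11 of the 19 probe sets, as for 65.5% of all. A change of 1.5-fold or more was found in 13.4% of all genes.

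**Figure D1:**
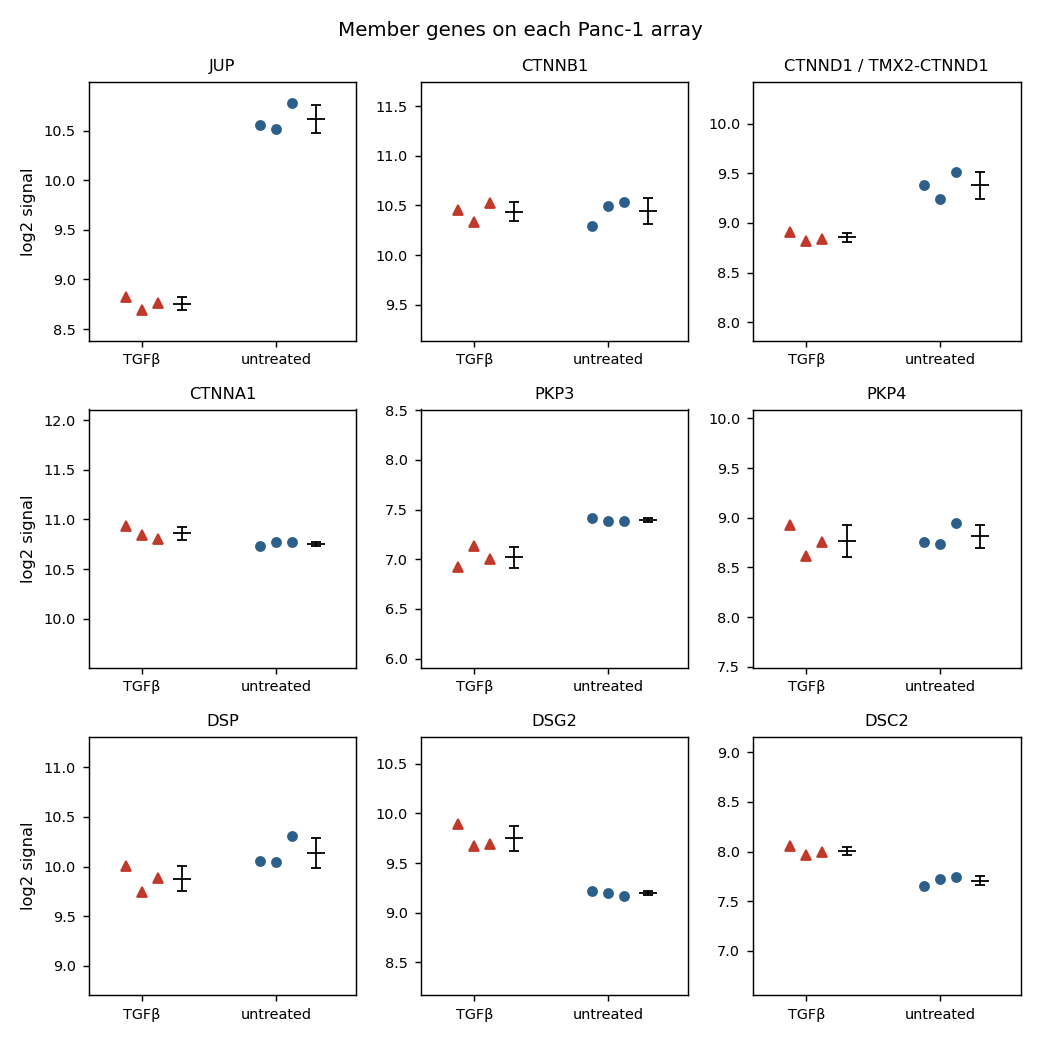
The vertical axis of each panel is the log2 signal of 1 gene on each array and spans the same range in log2 units, with triangles for the 3 TGFβ arrays, circles for the 3 untreated arrays and black bars for the mean and SD of each group. JUP lies near 8.76 with TGFβ and 10.6 without, while the arrays of CTNNB1 and PKP4 overlap. The panel of CTNND1 is the mean of the 4 probe sets that also name TMX2-CTNND1.

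Plakoglobin, the catenin shared by adherens junctions and desmosomes, had the largest change of the set. JUP (Entrez 3728, probe set 201015_s_at) had a log2 signal of 8.82, 8.69 and 8.76 on the TGFβ arrays, against 10.56, 10.51 and 10.77 on the untreated arrays. The groups lay far apart, and the TGFβ arrays differed among themselves by less than the untreated ones. The log2 fold change was -1.86 (SE 0.067, 95% interval -2.02 to -1.69, limma adjusted p = 1.19e-05), which ranked 83 by size among the 10115 genes. JUP has 1 probe set on this array, so no second one checks its value. The 3 genes whose values, centred on their mean, ran closest to those of JUP over the 6 arrays were TPPP, C14orf132 and ERMP1, at Euclidean distances of 0.166, 0.170 and 0.178 log2 units. Their log2 fold changes were -1.81, -1.76 and -1.89, which lie near that of JUP because of how the genes were picked.

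For β-catenin, the close relative of plakoglobin, no change was detected. CTNNB1 (Entrez 1499, probe set 201533_at) had a log2 signal of 10.46, 10.33 and 10.52 with TGFβ, against 10.30, 10.50 and 10.54 without. The groups overlapped, and the log2 fold change of -0.0064 (SE 0.071) had a 95% interval of -0.18 to 0.17. The other 2 probe sets of CTNNB1 were below the limit, with mean log2 signals of 5.53 and 4.80 on TGFβ arrays against 5.68 and 5.00 on untreated arrays. α-Catenin did not pass the test either. CTNNA1 (Entrez 1495) averaged 10.86 ± 0.069 with TGFβ and 10.75 ± 0.022 without on the log2 scale (SD, n = 3). Its log2 fold change was 0.10 with a 95% interval of -0.033 to 0.24 (limma adjusted p = 0.159). Its 4 passing probe sets gave log2 fold changes between 0.026 and 0.14, and each of them missed the threshold. The TGFβ arrays lay above the untreated ones for the gene mean, from 10.80 to 10.93 against 10.73 to 10.77, though the test did not call it. The fifth probe set of CTNNA1, 215883_at, was under the limit, at 5.73 with TGFβ and 5.74 without.

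The probe sets that name p120-catenin together with its read-through also had lower signal, and their falls were unequal. The plot of the 4 probe sets that name CTNND1 and TMX2-CTNND1 shows every TGFβ array under every untreated one in each of them. Probe set 208407_s_at had a log2 signal of 9.01, 8.84 and 9.01 with TGFβ, against 9.90, 9.78 and 9.90 without. This was a log2 fold change of -0.91 (SE 0.054, limma adjusted p = 8.29e-05), 1.88-fold lower. Probe set 211240_x_at had 9.05, 8.87 and 8.94 with TGFβ against 9.43, 9.30 and 9.56 without, and fell by 0.47 on the log2 scale (SE 0.069, limma adjusted p = 0.00207). Probe set 208862_s_at was at 8.93, 8.87 and 8.77 with TGFβ and at 9.22, 9.06 and 9.51 without. Probe set 1557944_s_at was at 8.64, 8.70 and 8.62 with TGFβ and at 8.97, 8.83 and 9.07 without. Their log2 fold changes were -0.41 (SE 0.11) and -0.30 (SE 0.076), with limma adjusted p of 0.0206 and 0.0162. Without replicate 3 these 2 calls were lost (limma adjusted p = 0.0598 and 0.0906), with log2 fold changes of -0.25 and -0.23.

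**Figure D2:**
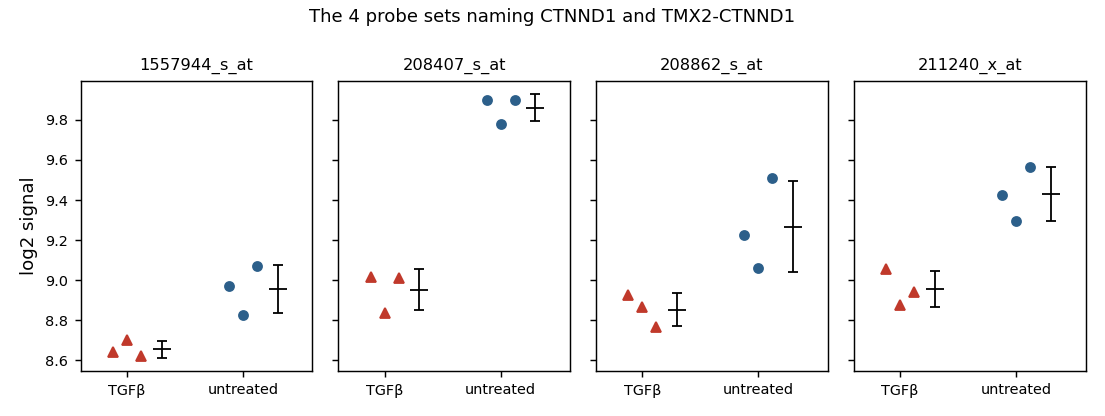
Log2 signal on each array (vertical axis, shared by the panels) for the 4 probe sets that name CTNND1 and its read-through TMX2-CTNND1, with triangles for TGFβ, circles for untreated arrays and black bars for the mean and SD. The gap between the groups is widest for 208407_s_at, at -0.91, and narrowest for 1557944_s_at, at -0.30. Levels of different probe sets are not comparable with each other.

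Whether probe sets of 1 gene moved differently was tested with limma's diffSplice, which sets each probe set against the others of its gene. With probe sets that name the same several genes pooled as 1 gene, an alternative added after seeing the data, 208407_s_at fell by 0.51 log2 units more than the other CTNND1 probe sets (adjusted p = 0.00355). Of all probe sets tested this way 24.9% differed from the others of their gene. The other 3 did not pass that test, with differences of 0.30 (adjusted p = 0.0591), 0.15 and 0.068. CTNND1 makes several isoforms, among them longer and shorter proteins that are known to be used by mesenchymal and epithelial cells, but the annotation used here does not place these probe sets on isoforms. Taken as 1 feature, the 4 probe sets averaged 8.85 ± 0.048 with TGFβ and 9.38 ± 0.13 without on the log2 scale (SD, n = 3). The log2 fold change was -0.52 (SE 0.065, limma adjusted p = 0.000925). Of all such features 58.6% changed and 30.7% were lower.

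Of the plakophilins, armadillo proteins of the desmosome plaque, PKP3 fell, PKP4 did not pass and PKP2 was too dim to test. PKP3 (Entrez 11187), which binds desmosomal cadherins and desmoplakin in most epithelia, had a log2 signal of 6.92, 7.13 and 7.001 with TGFβ, against 7.42, 7.39 and 7.38 without, in probe set 209873_s_at. The groups did not overlap, and the log2 fold change was -0.38 (SE 0.062, limma adjusted p = 0.00285). Signals of PKP3 were only just above the limit in both groups. Its second probe set, 209872_s_at, lay under the limit at 4.94 with TGFβ and 4.89 without. When it was averaged in, the log2 fold change of PKP3 was -0.17 and the call was lost (limma adjusted p = 0.130).

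PKP4 (Entrez 8502), also called p0071, which is found at adherens junctions as well as desmosomes, averaged 8.77 ± 0.16 with TGFβ and 8.82 ± 0.12 without (log2, SD, n = 3). Its arrays overlapped, from 8.61 to 8.93 with TGFβ and from 8.74 to 8.95 without, and its log2 fold change of -0.049 had a 95% interval of -0.24 to 0.15 (limma adjusted p = 0.622). The 3 passing probe sets gave 0.061, -0.068 and -0.14. The first pair of arrays went the other way from the other two, at 0.17 against -0.13 and -0.19, and without replicate 1 PKP4 was lower by -0.16 and passed (limma adjusted p = 0.0310). The other 2 probe sets of PKP4 were under the limit. PKP2, the plakophilin of heart and simple epithelia, was near the floor of the array in every sample. Its 2 probe sets had mean log2 signals of 3.45 and 4.22 with TGFβ against 3.52 and 4.27 without, and their arrays overlapped.

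Desmoplakin, the link to keratin filaments, had a small fall whose call depended on single replicates. DSP (Entrez 1832, probe set 200606_at) had a log2 signal of 10.00, 9.75 and 9.88 with TGFβ, against 10.06, 10.05 and 10.31 without. The highest TGFβ array lay just under the lowest untreated one. The log2 fold change was -0.26 (SE 0.078, 95% interval -0.45 to -0.069, limma adjusted p = 0.0297). The pairs differed by -0.054, -0.30 and -0.43. Without replicate 2 the change was -0.24 and without replicate 3 it was -0.18, and neither passed (limma adjusted p = 0.118 and 0.147). In the test of single probe sets DSP also did not pass without the limit on signal (limma adjusted p = 0.0846). With arrays centred on their medians it did not pass in that test (limma adjusted p = 0.0548) but passed in the gene fit (limma adjusted p = 0.0244).

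The desmosomal cadherin genes DSG2 and DSC2 rose. Of their plaque partners JUP, PKP3 and DSP fell, PKP4 did not pass and PKP2 was too dim to test. The calls of PKP3, DSP and DSC2 were lost under some of the alternatives. DSG2 (Entrez 1829), the desmoglein of simple epithelia, had gene values of 9.89, 9.67 and 9.69 with TGFβ, against 9.22, 9.20 and 9.17 without. Every TGFβ array was higher, and the log2 fold change was 0.55 (SE 0.059, 95% interval 0.41 to 0.70, limma adjusted p = 0.000550), 1.47-fold. Both of its probe sets rose, 1553105_s_at by 0.68 (SE 0.065) and 217901_at by 0.42 (SE 0.064). In 1553105_s_at the log2 signals were 9.13, 8.92 and 8.85 with TGFβ and 8.33, 8.33 and 8.20 without, and in 217901_at they were 10.65, 10.42 and 10.53 against 10.11, 10.07 and 10.15. The difference of 0.26 between them did not pass (diffSplice adjusted p = 0.0736).

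DSC2 (Entrez 1824), the desmocollin of simple epithelia, had gene values of 8.06, 7.97 and 7.99 with TGFβ, against 7.65, 7.72 and 7.74 without, again with no overlap. The log2 fold change was 0.30 (SE 0.056, 95% interval 0.16 to 0.43, limma adjusted p = 0.00489). Of its 2 passing probe sets, 1 passed the test alone. Probe set 204751_x_at was at 7.19, 7.21 and 7.17 with TGFβ and at 6.71, 6.71 and 6.81 without, a log2 fold change of 0.45 (SE 0.058, limma adjusted p = 0.00130). The brighter 226817_at was at 8.92, 8.73 and 8.81 with TGFβ and at 8.59, 8.73 and 8.68 without, which overlapped and gave 0.15 (SE 0.076, limma adjusted p = 0.140). The difference of 0.30 between them did not pass with the replicate block (diffSplice adjusted p = 0.0572). Names ending in _x_at mark probe sets some of whose probes can match other transcripts, and with 226817_at alone DSC2 had no call. Of the probe sets under the limit, 204750_s_at was higher on every TGFβ array, from 5.12 to 5.45 with TGFβ against 4.78 to 5.00 without, and 231033_at was at 4.42 with TGFβ and 4.49 without. In the fit without the limit 204750_s_at was the 1 of the 10 dim member probe sets to pass (log2 fold change 0.41, limma adjusted p = 0.0263). That fit passed 20.2% of all probe sets, brighter ones included, and the share among dim ones alone was not counted.

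**Figure D3:**
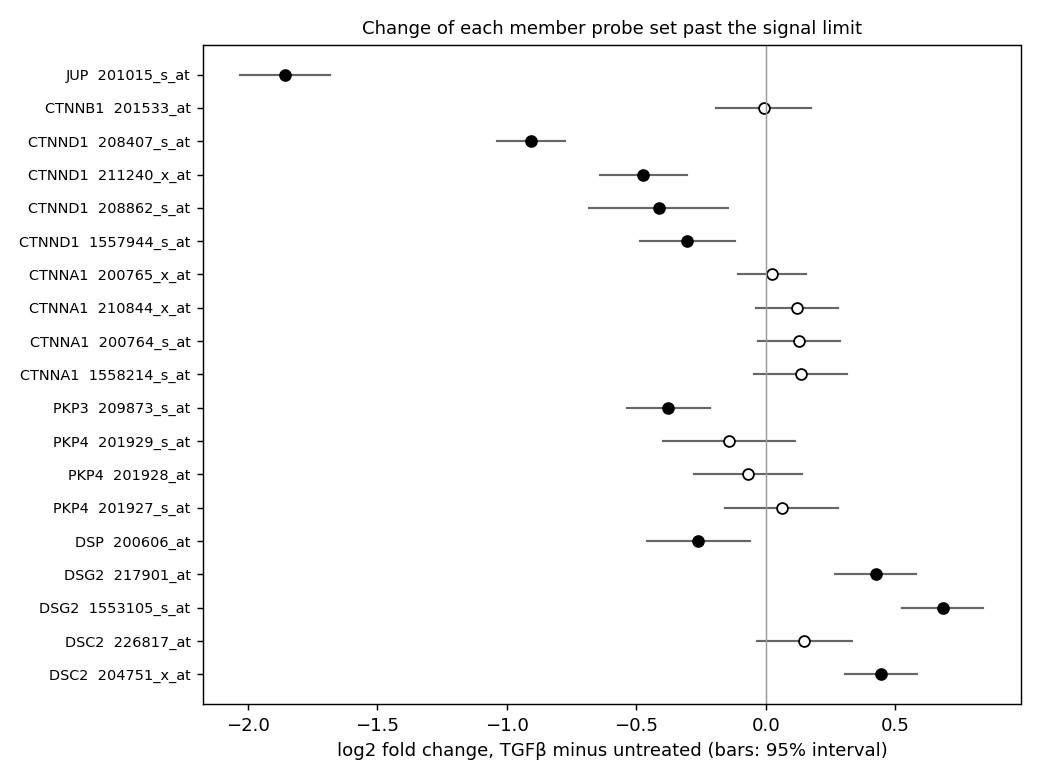
Each row is 1 of the 19 member probe sets past the signal limit, with its gene, and the horizontal axis is its log2 fold change, TGFβ minus untreated (n = 3 arrays per group). Points are filled where the limma adjusted p was under 0.05, and bars are 95% intervals. JUP lies alone at -1.86, the 4 CTNND1 probe sets, which also name TMX2-CTNND1, run from -0.91 to -0.30, and those of DSG2 and DSC2 lie above 0.

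Over the member genes with 2 or more passing probe sets, diffSplice called 0 of 11 probe sets at an adjusted p under 0.05, and 4 had an unadjusted p under 0.05, those of DSG2 and DSC2. Without replicate 1 these 4 passed (adjusted p = 0.0386 and 0.0173), and without the replicate block the 2 of DSC2 did (adjusted p = 0.0192). Of all probe sets tested 25.5% differed from the others of their gene.

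The start sites of the members were read for the E-box CACCTG, a sequence bound by the SNAIL and ZEB repressors of E-cadherin, on either strand (CAGGTG on the other). RefSeq promoter sequences (build GRCh38.p14) matched 7 of the 10 genes, with 13 start sites, and the 250 bases before each start were searched. CTNND1, PKP2 and PKP3 were not matched. The E-box was found before 4 of the 13 start sites, 1 each of JUP, DSP, DSG2 and DSC2, and before 17.5% of all 35116. Of these genes JUP and DSP fell and DSG2 and DSC2 rose. The windows are shown, with the boxes in capitals, beside that of CTNNB1, which has none. The boxes begin 54 and 43 bases before the second start of JUP, 178 and 85 before that of DSP, 232 and 116 before that of DSG2 and 156 before the first start of DSC2.
JUP, second start site, chr17:41785977-41786226 (- strand): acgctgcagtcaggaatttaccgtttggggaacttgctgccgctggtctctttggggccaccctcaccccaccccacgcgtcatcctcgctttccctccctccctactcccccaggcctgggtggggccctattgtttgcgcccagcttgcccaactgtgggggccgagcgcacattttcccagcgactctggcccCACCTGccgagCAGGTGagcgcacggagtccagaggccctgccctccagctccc
DSP, only start site, chr6:7541421-7541670 (+ strand): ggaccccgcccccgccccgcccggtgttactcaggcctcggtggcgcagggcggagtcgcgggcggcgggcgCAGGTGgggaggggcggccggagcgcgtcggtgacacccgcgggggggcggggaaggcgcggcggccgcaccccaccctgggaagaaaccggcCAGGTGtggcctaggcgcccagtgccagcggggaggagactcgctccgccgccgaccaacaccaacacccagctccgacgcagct
DSG2, only start site, chr18:31497927-31498176 (+ strand): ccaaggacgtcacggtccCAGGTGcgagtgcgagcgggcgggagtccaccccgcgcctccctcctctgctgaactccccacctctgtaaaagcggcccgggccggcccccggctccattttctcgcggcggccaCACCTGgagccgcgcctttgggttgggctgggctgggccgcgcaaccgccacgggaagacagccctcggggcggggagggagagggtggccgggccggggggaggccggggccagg
DSC2, first start site, chr18:31102422-31102671 (- strand): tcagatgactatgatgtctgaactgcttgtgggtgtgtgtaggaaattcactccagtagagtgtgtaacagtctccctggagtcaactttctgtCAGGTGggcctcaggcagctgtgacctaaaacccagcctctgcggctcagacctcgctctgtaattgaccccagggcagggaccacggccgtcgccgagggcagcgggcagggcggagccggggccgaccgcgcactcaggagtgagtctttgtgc
CTNNB1, only start site, chr3:41199255-41199504 (+ strand): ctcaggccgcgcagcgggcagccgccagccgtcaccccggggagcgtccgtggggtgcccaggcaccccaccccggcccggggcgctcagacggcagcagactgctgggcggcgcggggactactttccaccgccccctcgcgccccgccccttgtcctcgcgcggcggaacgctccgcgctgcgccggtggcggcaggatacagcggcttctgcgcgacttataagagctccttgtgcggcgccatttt
The CAGAC box, part of the SMAD binding sequence, was found on either strand before 4 of the 13 start sites (1 each of CTNNA1, CTNNB1, PKP4 and DSC2) and before 38.0% of all. The 2 motifs do not overlap each other in any of the 13 windows. A match of letters is not a bound site, and the start site used in Panc-1 cells is not known from these arrays.

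Partner genes of the same junctions were described from 6 lists with 78 genes, of which 52 had a passing probe set. Of these 52, 6 rose, 19 fell and 27 did not pass, beside 27.7% higher and 31.0% lower among all genes. The median log2 fold change was -0.14, against -0.013 over all genes.

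Among the other desmosome genes the largest fall was that of the plakin periplakin. PPL, which links plaques and keratins, had a log2 signal of 7.84, 7.51 and 7.69 with TGFβ, against 9.82, 9.86 and 9.98 without, a log2 fold change of -2.21 (SE 0.080, limma adjusted p = 1.23e-05). Of the 4 other desmosome genes past the limit, PPL and PERP, a membrane protein of desmosomes, fell (-0.37 for PERP), and KAZN, a periplakin-binding protein, rose (0.24). PNN, first described at desmosomes but also a nuclear splicing protein, did not pass at -0.12. The other 8 listed genes, among them PKP1, DSG1, DSG3, DSC1 and DSC3 of stratified epithelia, were below the limit.

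Among the cadherins that catenins bind, CDH1 (E-cadherin) had a log2 signal of 5.84, 5.47 and 5.38 with TGFβ, against 7.50, 7.58 and 7.66 without, a log2 fold change of -2.02 (SE 0.11, limma adjusted p = 5.02e-05). CDH1 passed the limit on signal through the untreated group only. Every TGFβ array lay under that limit, so the size of the fall of CDH1 rests on dim signal. CDH2 (N-cadherin) rose by 0.41 (SE 0.065) and CDH11 fell (-0.22). Of the 3 keratin genes past the limit, whose filaments desmoplakin anchors, KRT8 and KRT18 fell, KRT8 4.53-fold (log2 fold change -2.18) and KRT18 2.38-fold, whereas VIM, the mesenchymal filament gene, rose by 0.36. Keratin genes have many near-identical pseudogenes, so their probe sets may also read those. KRT7 did not pass, at 0.24 with all TGFβ arrays above the untreated ones (limma adjusted p = 0.0569). Averaged over all its probe sets, without the limit on signal, KRT7 was at -0.010 with overlapping arrays (limma adjusted p = 0.934). The linkers PLEC (-0.16) and DST (-0.19) did not pass either.

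Of 13 other adherens junction genes, 3 rose and 5 fell, with a median of -0.0069. ACTN1 (α-actinin, an actin crosslinker) rose by 1.04 (SE 0.070) and VCL (vinculin, which binds α-catenin under tension) by 0.42 (SE 0.066). CTNNAL1 (α-catulin, related to α-catenin) fell by 1.00 (SE 0.064) and AJUBA, a LIM protein that binds α-catenin, by 0.50 (SE 0.067). Of the relatives of p120-catenin, ARVCF did not pass (0.025, 95% interval -0.11 to 0.16) and CTNND2 was below the limit.

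The lists of β-catenin turnover genes and of its nuclear partners included none that rose by the test. Both lists also hold genes that act against β-catenin or do not degrade it. Of 9 genes of β-catenin turnover 3 fell, among them SIAH1 (-0.16, limma adjusted p = 0.0486), and 6 did not pass. CTNNBIP1 (ICAT, an inhibitor of β-catenin binding to TCF) fell by 0.57 (SE 0.047) and the deubiquitinase gene USP9X by 0.26, while APC, AXIN1, GSK3A and GSK3B did not pass, at -0.22, 0.041, 0.026 and 0.076. Of 17 nuclear partners 5 fell and 12 did not pass. Among all genes 31.0% were lower, near the share in both lists, and 27.7% were higher. The corepressor genes TLE2 (-0.91, SE 0.067) and TLE4 (-0.67, SE 0.063) had the largest falls, and ZBTB33 (Kaiso), a repressor bound by p120-catenin, was also lower (-0.25). TCF7L1 did not pass, at -0.062. TCF7L2 (-0.13, all TGFβ arrays below the untreated ones) and LEF1 (0.16, all TGFβ arrays above them) did not pass either (limma adjusted p = 0.0685 and 0.0551).

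**Figure D4:**
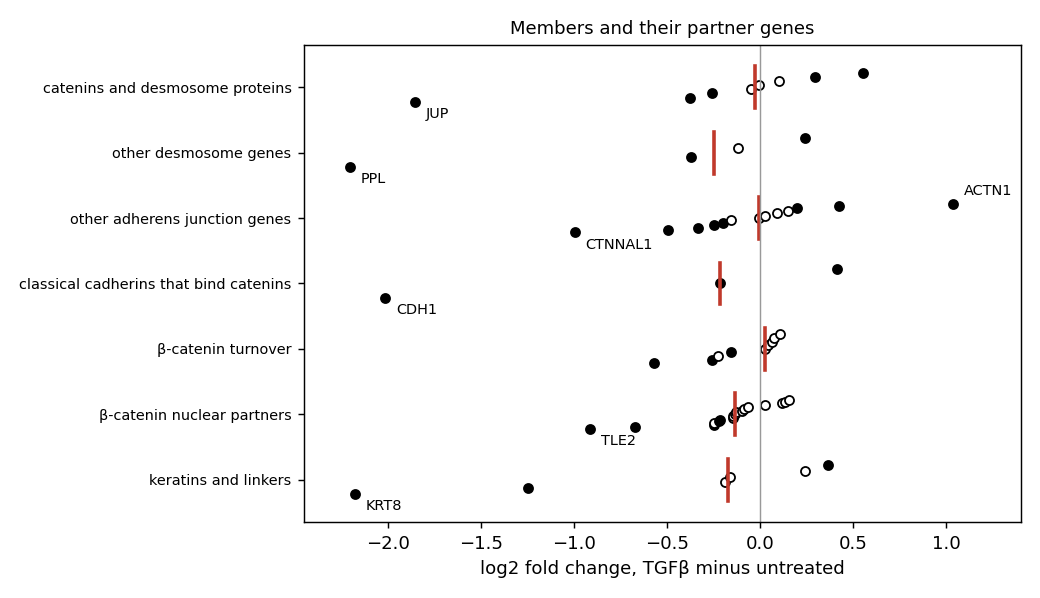
The rows are gene lists and each point is 1 tested gene, with its log2 fold change, TGFβ minus untreated, on the horizontal axis (n = 3 arrays per group), and filled where the limma adjusted p was under 0.05. Red bars are list medians, and genes at the ends beyond 0.9 log2 units are named. JUP, PPL, CDH1 and KRT8 stand near -2, while the β-catenin lists lie between -0.91 and 0.16.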

How the data were processed

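The authors deposited 1 log2 signal for each of 54675 probe sets on each array. The scale is inferred from the range of 2.89 to 14.8. The summarisation software and any normalisation between arrays are not given in the sources used here. Groups and replicate numbers came from the sample titles. Leaving out 62 control probe sets, the platform annotation named 1 gene for 41091, several for 1801 and none for 11721. Gene symbols were updated through Entrez IDs (19735 of 19777 matched RefSeq).

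Probe sets with a mean log2 signal under 6.64 in both groups were left out. Differences were fitted with limma 3.58.1 in R 4.3.3 (lmFit, eBayes, two-sided) over all 19101 probe sets and 10115 genes, with the replicate number as a block as in the paired test of the study's methods, and Benjamini-Hochberg adjustment. This left 2 residual and 4.12 prior degrees of freedom for genes. Probe sets of 1 gene were compared with diffSplice in the same design. The scripts were tested on simulated data. The number of arrays limits the precision. All members and their probe sets were accounted for. Of each partner list, up to 2 rises and 2 falls past the threshold and alike in sign in all 3 pairs were named by rule, and other partner genes were named after their values were seen. Members and lists were chosen with earlier results of these data known. Alternatives covered the block, the limit on signal, array scaling, an added constant, the variance model, probe set types, the brightest probe set, each replicate left out, the methods' t-test and a fold threshold. Figures used Python 3.11.15 and matplotlib 3.10.9.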

Additional observations from a re-analysis of the deposited data

How the results depend on the processing

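JUP, CTNNA1 and CTNNB1 kept their side of the threshold under the limma alternatives in which they could be fitted, as did DSG2 except where a change of at least 1.5-fold was also asked for. The member genes that passed numbered 3 of 9 without the limit on signal (26.8% of all genes), 3 of 7 under the stricter limit of 200, where PKP3 was not tested (62.0%), 2 of 5 without probe sets ending in _x_at or _s_at, where JUP, CTNNA1 and PKP3 had none left (57.9%), 1 of 8 at 1.5-fold or more (13.4%), and 4 to 6 of 8 with a replicate left out (42.3% to 63.8%). The member probe sets that passed numbered 2 of 5 without those ending in _x_at or _s_at (56.6% of all), 3 of 19 at 1.5-fold or more (14.4%), and 7 to 11 of 19 with a replicate left out (38.4% to 61.0%). PKP3 lost its call without the limit on signal (-0.17), as did DSP (-0.26). With a replicate left out DSP ran from -0.36 to -0.18 and PKP4 from -0.16 to 0.023. DSC2 was 0.15, without a call, under the stricter limit, without _x_at and _s_at probe sets and with the brightest probe set per gene. The member probe sets that differed from others of their gene numbered 3 of 23 without the limit on signal (20.1% of all), 2 of 11 without the replicate block (27.3%), 1 of 15 when CTNND1 and its read-through were pooled (24.9%), and 0 to 4 of 11 with a replicate left out (10.4% to 34.2%). Of all genes 1357 changed by at least 1.5-fold, and 4280 to 6458 passed with a replicate left out. Of partner genes 17 to 33 did.

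Same-numbered arrays did not all deviate together (correlations of -0.289, 0.242 and 0.0597). These deviations were taken from the means of groups of 3 arrays, so they cannot settle whether the numbers pair the samples. The methods' t-test, paired, on log2 values passed 4 of 8 member genes and 7 of 19 member probe sets at their unadjusted threshold, where 48.1% of all genes and 45.2% of all probe sets passed. After Benjamini-Hochberg adjustment 1 gene and 3 probe sets did, where 23.9% and 17.1% of all passed, and the member counts were the same on linear signals. Without the replicate block the same counts of 5 member genes and 10 member probe sets passed, with 30 partner genes (25 with it) and 6265 genes in all (5934 with it). The cause of these changes was not tested. Signals near the limit, as for PKP3 and 204751_x_at of DSC2, and 3 arrays per group set what could be seen.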

Other observations

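Of the partner genes 75 had a probe set naming no other gene, and 52 of these had 1 past the signal limit. Among the rest, which lay below the limit in both groups, 4 passed the fit without that limit. In that fit 26.8% of all genes passed, brighter genes included. CDH3 (P-cadherin) was at 6.14 ± 0.13 with TGFβ and 6.63 ± 0.086 without on the log2 scale (SD, n = 3). Its log2 fold change was -0.49 (limma adjusted p = 0.00221). KRT19 was at 4.48 ± 0.034 with TGFβ and 5.14 ± 0.099 without, a log2 fold change of -0.66. PLEKHA7, which binds p120-catenin at the adherens junction, had -0.27 with overlapping arrays, and DSC1, a desmocollin of stratified epithelia, had 0.24. These signals are dim, and DSC1 at 3.70 with TGFβ and 3.46 without is near the lowest values of the array.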
